A study of Mus musculus with 4 samples.

Results

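The genes described here are 9 named components of the renin-angiotensin system, out of 55401 gene models in the deposited FPKM tables. They are Agtr1a, Agtr1b and Agtr2, which encode angiotensin receptors, the related receptor gene Mas1, the peptidase genes Lnpep, Ace and Prcp, and the accessory genes Atp6ap2 and Agtrap. They were chosen by name, and each was found as 1 row in every table. The libraries came from group 2 innate lymphoid cells (ILC2s), tissue-resident lymphocytes without antigen receptors, purified from the lungs of C57BL/6 mice. The cells were cultured for 6 h with the activating alarmin IL-33 plus angiotensin II (Ang II) for 2 libraries, and with IL-33 alone for the other 2. All 4 libraries therefore received IL-33, and no library of unstimulated cells was analysed here. Each library was made from 500 cells. The labels give no dose, no age or sex of the mice, and do not say whether cells of several mice were pooled. Where nothing says that samples came from separate mice or cultures, p-values measure the spread between these libraries, which may be technical.

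The renin-angiotensin system produces Ang II from angiotensinogen through renin and angiotensin-converting enzyme, and Ang II acts through G protein-coupled receptors. In mice the type 1 receptor is encoded by a pair of paralogs, Agtr1a and Agtr1b. It raises intracellular calcium through Gq-type proteins and is known for vasoconstriction, and on immune cells for effects on inflammation. The type 2 receptor (Agtr2) and Mas, the receptor for a shorter angiotensin peptide, are generally described as opposing it. The series title names the question of how Ang II acts on ILC2 responses through the type 1a receptor, and the comparison made here is that of Ang II added to IL-33 with IL-33 by itself.

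The promoter windows of 4 members are shown first, chosen by their levels: Agtr1b and Mas1 were listed at 0 in every library, and Lnpep and Atp6ap2 were the members above 1 FPKM in every library. Each window runs from 250 bases before to 50 bases after the RefSeq start on GRCm38.p6, 5′ to 3′ on the strand of the gene, with CpG dinucleotides in capitals. The windows are chr3:20367128-20367427 (minus strand) for Agtr1b, chr17:12868094-12868393 (minus strand) for Mas1, chr17:17624440-17624739 (minus strand) for Lnpep and chrX:12587509-12587808 (plus strand) for Atp6ap2.
Agtr1b: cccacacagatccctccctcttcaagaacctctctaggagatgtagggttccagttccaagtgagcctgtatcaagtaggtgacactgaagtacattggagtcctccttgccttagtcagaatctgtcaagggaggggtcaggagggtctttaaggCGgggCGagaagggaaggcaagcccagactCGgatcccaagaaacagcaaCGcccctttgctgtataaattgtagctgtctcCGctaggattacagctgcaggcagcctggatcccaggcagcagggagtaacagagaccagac
Mas1: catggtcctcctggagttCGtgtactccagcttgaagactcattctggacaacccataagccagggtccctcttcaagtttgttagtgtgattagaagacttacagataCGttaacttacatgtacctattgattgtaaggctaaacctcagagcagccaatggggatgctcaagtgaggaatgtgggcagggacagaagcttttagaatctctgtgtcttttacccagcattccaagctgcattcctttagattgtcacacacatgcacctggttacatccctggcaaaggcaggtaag
Lnpep: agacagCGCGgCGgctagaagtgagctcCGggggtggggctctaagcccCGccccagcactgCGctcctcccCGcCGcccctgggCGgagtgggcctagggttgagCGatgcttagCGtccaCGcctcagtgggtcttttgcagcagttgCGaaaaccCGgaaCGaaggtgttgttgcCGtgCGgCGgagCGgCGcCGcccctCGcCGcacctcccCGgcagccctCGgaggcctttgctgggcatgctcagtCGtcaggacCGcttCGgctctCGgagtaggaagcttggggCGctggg
Atp6ap2: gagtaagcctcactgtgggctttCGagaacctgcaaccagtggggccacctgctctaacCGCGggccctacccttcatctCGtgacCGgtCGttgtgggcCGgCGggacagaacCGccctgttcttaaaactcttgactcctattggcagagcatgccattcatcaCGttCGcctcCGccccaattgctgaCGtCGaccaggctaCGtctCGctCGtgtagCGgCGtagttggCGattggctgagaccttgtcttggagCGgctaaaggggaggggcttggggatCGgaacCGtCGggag
The Mas1 window held 2 CpG and that of Agtr1b held 5, against 30 for Lnpep and 24 for Atp6ap2. Of all 32851 RefSeq windows of this length, 85.9% held at least 2 CpG, 61.96% at least 5, 19.98% at least 24 and 11.7% at least 30. The window of Agtr2 held 5 CpG, that of Prcp 14 and that of Agtrap 20. Ace has a pair of windows, with 29 CpG at the first start and 2 at the second. RefSeq windows were matched for 8 of the 9 members, the ninth being Agtr1a. The median over windows of genes in the gene test was 20 CpG (7466 windows), and that over protein-coding genes listed at 0 in all 4 libraries was 5 CpG (7541 windows). The 3 matched members listed at 0 thus had windows at or below the second median, and those of Lnpep and Atp6ap2 lay above the first. The other members did not follow this split. The first window of Ace also lay above the first median, although Ace was at or below 0.12 FPKM in every library. Agtrap, which was in the gene test, lay at that median. The motif TATAAA was searched on both strands. It was found in the windows of Agtr1b and, at its first start, Ace, and 13.6% of all windows hold it. A match is a description of the letters and not a measured binding site.

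**Figure D1:**
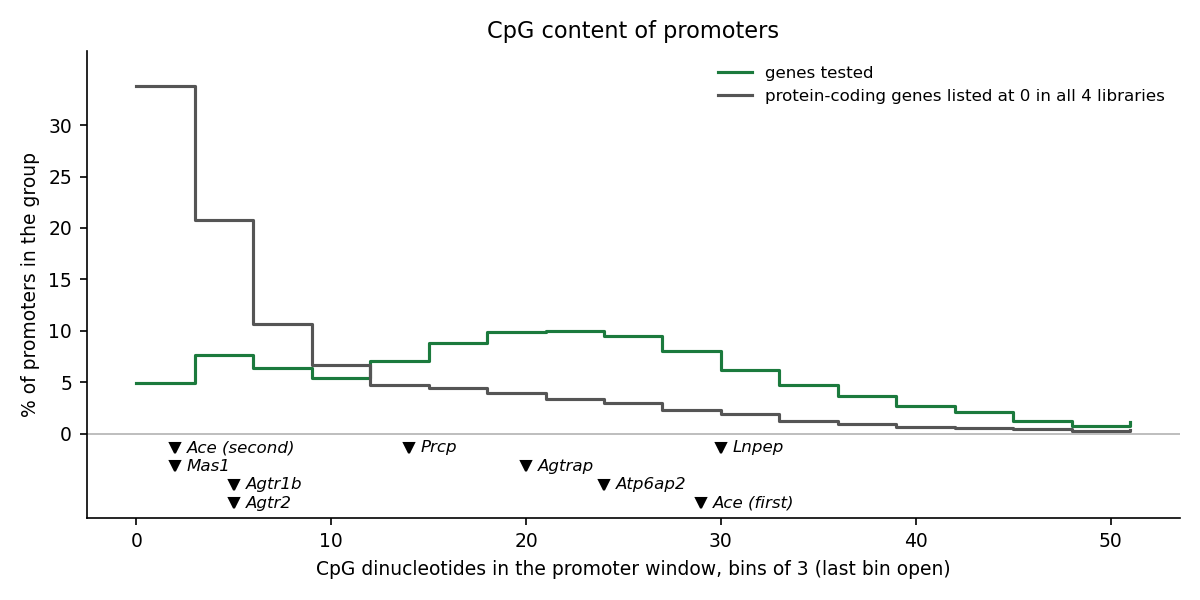
The horizontal axis gives the number of CpG dinucleotides in the 300-base promoter window, and the vertical axis the percent of windows in each group (lines). Triangles mark the windows of the members: Mas1, Agtr1b and Agtr2 lie at 2 to 5 CpG, and Atp6ap2 and Lnpep at 24 and 30. Prcp and Agtrap lie at 14 and 20, and the windows of Ace at 29 (first) and 2 (second).

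The libraries were compared with each other before any gene was tested. Over the 9215 genes averaging 1 FPKM or more, log2(FPKM + 1) correlated at Pearson r = 0.57 within the Ang II pair, at 0.99 within the IL-33 pair and at 0.56 to 0.57 between groups. They are correlations over genes, and genes are not independent replicates. At the depth implied by how often low genes are missed in the IL-33 libraries, the middle IL-33 gene differed by 1.04 times counting noise (root mean square 2.10 times). The middle gene of the Ang II pair differed by 13.3 times that noise, at the same depth, as none was inferred from the Ang II libraries. Since that depth was itself taken from the IL-33 pair, a ratio near 1 there is partly built in. Neither the labels nor these values settle whether the IL-33 libraries are 1 library sequenced again, and if they are, every pair of IL-33 values printed here is a repeat reading of it. As the more cautious choice, the pair was counted as 1 sample, so that the gene test sets Ang II (n = 2) against IL-33 (n = 1). Under that choice 0 genes passed, and with both taken as replicates 1547 did. With both taken as replicates and the replicate number added to the fit as a block, 0 passed. Of 8187 genes with at least 1 FPKM in an Ang II library, 34.97% were below 0.1 FPKM in the other one, against 0.45% of 6823 genes in the IL-33 pair. Of 14 ILC2 markers, 11 stood at 1 FPKM or more in all 4 libraries. Il5 was listed at 0 in every library, and Thy1 was at or below 0.09 FPKM. Il13 stood at 16.3 and 0.53 FPKM with Ang II and at 70.05 and 73.66 FPKM with IL-33. Of 12 measured ILC2 markers, 3 were higher and 1, Il13, lower in both Ang II libraries than in both IL-33 libraries. These shares were 24.4% and 33.5% over all tested genes. Areg, with the highest log2 fold change of these markers (5.02), stood at 217 and 344 FPKM against 7.38 and 7.51 FPKM.

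**Figure D2:**
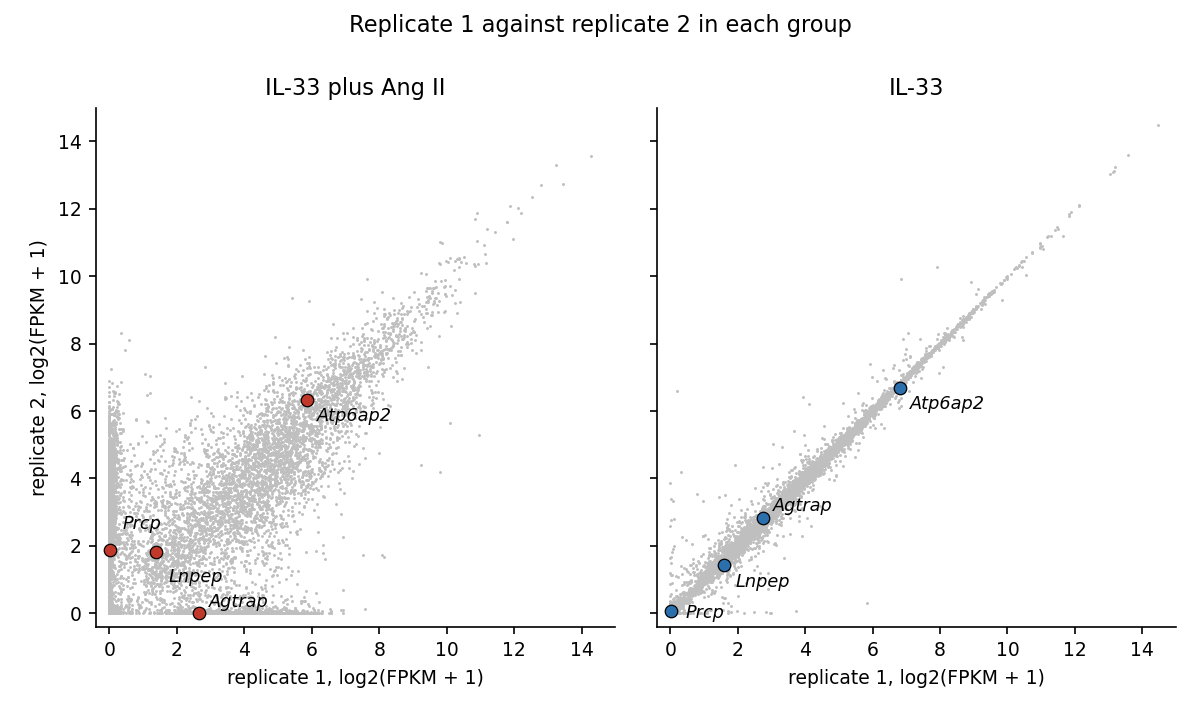
Each grey point is 1 of 9215 genes, with log2(FPKM + 1) in replicate 1 on the horizontal and in replicate 2 on the vertical axis, for IL-33 plus Ang II (left) and IL-33 (right). Coloured points are 4 members: Agtrap and Prcp each lie on an axis in the Ang II pair, Agtrap at 0 FPKM in replicate 2 and Prcp at 0.02 FPKM in replicate 1, and all 4 lie along the diagonal in the IL-33 pair.

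The receptors came first in the comparison. Agtr1a, which encodes the type 1a angiotensin receptor, was at 0 FPKM in each Ang II library and in each IL-33 library. Agtr1b, Agtr2 and Mas1 were likewise listed at 0 in all 4 libraries, so no fold change can be given for any of the 4 receptor genes. Agtr1a lies on chromosome 13 (30336441 to 30382867, plus strand), Agtr1b on chromosome 3 (20314473 to 20367177, minus strand), Agtr2 on chromosome X (21484544 to 21489164, plus strand) and Mas1 on chromosome 17 (12841079 to 12868143, minus strand) of mm10. A listed 0 does not show that a transcript is absent. Of 55401 gene models, 37146 were listed at 0 in all 4 libraries, the lowest value above 0 was 0.01 FPKM, and the files give no counts from which a limit could be set. Among 2063 protein-coding genes whose longest transcript is within 10% of the 2199 bases of Agtr1a, 45.8% were listed at 0 in all 4 libraries. Of 16 genes that cells in general use, 14 were at 1 FPKM or more in all 4 libraries and 0 were listed at 0 in all 4. Gusb, picked out of these 16 after its values were seen, stood at 0.02 and 2.99 FPKM with Ang II. With IL-33 it stood at 0 and 0.08 FPKM. Polr2a, the other gene of the 16 that fell below 1 FPKM, stood at 0.05 and 0.05 FPKM with Ang II and at 5.64 and 6.37 FPKM with IL-33. Values near 0 in both Ang II libraries were thus also found for a gene that cells in general use.

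Agtr1a and Agtr1b are close copies. Their coding sequences are both 1080 bases long and 90.8% identical, and 3.20% of the 50-base windows of the Agtr1a coding sequence also occur in the Agtr1b transcript. Agtr1a and Agtr2 were 45.4% identical over their aligned coding sequences and shared 0 such windows. How reads that match both paralogs were counted is not stated.

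Other receptors of the same G protein-coupled class were measured in these libraries. A list of 24 receptors described on ILC2s or other lymphocytes was added after the values of the angiotensin receptors were known. Of these, 3 were listed at 0 in all 4 libraries, 7 were below 1 FPKM in all 4 and 8 were at 1 FPKM or more in all 4. Cxcr6, a chemokine receptor gene, stood at 1042 and 1375 FPKM with Ang II and at 1223 and 1236 FPKM with IL-33. Ccr8, a chemokine receptor gene of type 2 lymphocytes, stood at 688 and 671 FPKM with Ang II and at 1014 and 1022 FPKM with IL-33. The leukotriene receptor gene Ltb4r1 stood at 395 and 399 FPKM against 185 and 181 FPKM. Gpr183, whose product senses oxysterols, stood at 98.7 and 385.1 FPKM against 158 and 150.2 FPKM. Ltb4r1 was higher and Ccr8 lower in both Ang II libraries than in both IL-33 libraries, and of the 16 measured receptors 0 passed the adjusted threshold of 0.05 and 4 had an unadjusted p under it (limma), against 13.6% of all tested genes.

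**Figure D3:**
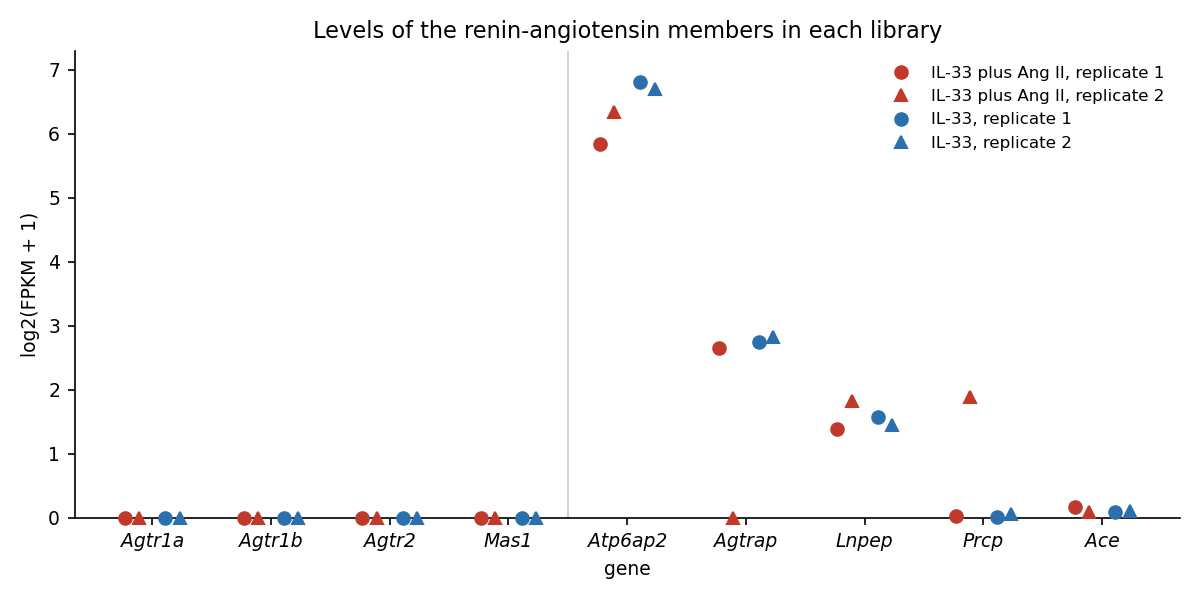
The vertical axis gives log2(FPKM + 1) of each member in each library, with IL-33 plus Ang II in red to the left of IL-33 in blue, circles for replicate 1 and triangles for replicate 2. The 4 receptor genes lie at 0 in every library, and Atp6ap2 is the member with the highest value in each, from 56.6 to 110.8 FPKM.

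Atp6ap2 was the most abundant member in every library. It encodes the prorenin receptor, a transmembrane protein that binds renin and prorenin and is also an accessory subunit of the vacuolar proton pump. It lies on chromosome X (12587801 to 12617049, plus strand), and its CpG-rich window is among those printed above. Its level was 56.6 and 79.9 FPKM with Ang II and 110.8 and 102.6 FPKM with IL-33. Both Ang II values lay below both IL-33 values, with means of 68.2 ± 16.5 FPKM (SD, n = 2) with Ang II and 106.7 FPKM with IL-33. The log2 fold change was -0.66 (SE 0.40) with an adjusted p of 0.775 (limma, Benjamini-Hochberg over 9215 genes, two-sided). It did not pass the threshold. Without the first Ang II library the log2 fold change was -0.41, and without the second it was -0.90. Of all tested genes, 33.5% were lower in both Ang II libraries and 24.4% higher in both, so a gene on the lower side in both is common here. In bulk libraries, fewer cells of a type and less RNA per cell cannot be told apart. The genes nearest to Atp6ap2 in log2(FPKM + 1) over the 4 libraries, among 7476 genes compared, were Cd200r1, Rab5if and Cd81, at Euclidean distances of 0.25, 0.25 and 0.29. Cd200r1, which encodes an inhibitory receptor, stood at 49.9 and 88.4 FPKM with Ang II and at 109.3 and 109.4 FPKM with IL-33.

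Agtrap encodes a membrane protein that binds the tail of the type 1 receptor and promotes its internalisation. It lies on chromosome 4 (148077061 to 148088031, minus strand). It stood at 5.29 FPKM in the first Ang II library, was listed at 0 in the second, and reached 5.75 and 6.07 FPKM with IL-33. The first Ang II value lay just below the IL-33 values and the second at 0, so the Ang II libraries differed from each other more than the first of them differed from IL-33. The log2 fold change was -1.46 (SE 1.79), with an adjusted p of 0.775 (limma), and the gene did not pass. Without the first Ang II library the log2 fold change was -2.79, and without the second it was -0.14, so that the second library carries nearly all of it. Among the tested genes, 881 were at 1 FPKM or more in the first and below 0.1 FPKM in the second, as Agtrap was. The genes nearest to Agtrap over the 4 libraries were Tgfbr2, Kit and Zfp946, at distances of 0.20, 0.23 and 0.30. Tgfbr2, which encodes a TGF-beta receptor, stood at 5.10 and 0.06 FPKM with Ang II and at 6.38 and 6.67 FPKM with IL-33. Kit, which encodes the stem cell factor receptor, stood at 6.26 and 0.01 FPKM with Ang II and at 6.17 and 5.75 FPKM with IL-33.

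Of the 3 peptidase genes, Lnpep was the only one above 1 FPKM in every library. Lnpep encodes insulin-regulated aminopeptidase, a transmembrane enzyme that cleaves vasopressin and oxytocin and binds angiotensin IV. It lies on chromosome 17 (17521410 to 17625050, minus strand). It stood at 1.62 and 2.55 FPKM with Ang II and at 1.99 and 1.72 FPKM with IL-33. The Ang II values lay on either side of the IL-33 values. The log2 fold change was 0.10 (SE 0.56, adjusted p = 0.940 by limma). It was 0.31 without the first Ang II library and -0.12 without the second, so its direction depends on which is used. The nearest genes were Crry-ps, Tpt1-ps5 and Krt6b, at distances of 0.40, 0.43 and 0.45, farther than for Atp6ap2 or Agtrap. The first pair are named as pseudogenes, whose reads can come from their parent genes.

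Prcp encodes prolylcarboxypeptidase, a lysosomal enzyme that removes the last residue of Ang II and also activates prekallikrein. It lies on chromosome 7 (92874470 to 92934583, plus strand). It stood at 0.02 FPKM in the first Ang II library and at 2.71 FPKM in the second, and at 0.01 and 0.04 FPKM with IL-33. Only the second Ang II library was above 1 FPKM. Its mean of under 1 FPKM left it out of the gene test. In the fit without a filter on low values its log2 fold change was 0.92 (SE 1.26, adjusted p = 0.755 by limma). Among the tested genes, 1982 were at 1 FPKM or more in the second and below 0.1 FPKM in the first, as Prcp was.

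Ace encodes angiotensin-converting enzyme, which produces Ang II and degrades bradykinin. It lies on chromosome 11 (105967945 to 105989964, plus strand) and shares 295 exonic bases with Gm11651 on the opposite strand, which was listed at 0 in all 4 libraries. Ace stood at 0.12 and 0.06 FPKM with Ang II and at 0.06 and 0.08 FPKM with IL-33, values that overlap and were too low for the gene test. Without the filter its log2 fold change was 0.03 (SE 0.05, adjusted p = 0.811 by limma). Endothelial cells of the lung are the classical source of Ace. Of 12 endothelial markers, Cdh5, Kdr, Tie1, Emcn and Ramp2 were listed at 0 in every library. The summed level of the 12 was 3.07 and 9.77 FPKM with Ang II and 31.96 and 31.7 FPKM with IL-33, and of the 2 measured genes 1 was lower in both Ang II libraries, beside 33.5% over every tested gene. Most of the IL-33 sum was Cldn5, at 0.05 and 0 FPKM with Ang II and at 29.6 and 29.3 FPKM with IL-33. Most of the Ang II sums was Tek in the first library (2.67 and 0 FPKM against 0 and 0 FPKM) and Pecam1 in the second. Pecam1, the other measured gene, stood at 0.11 and 9.08 FPKM with Ang II and at 1.14 and 1.15 FPKM with IL-33. The part of endothelial RNA in the Ace values was not tested.

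Set side by side per length, the IL-33 libraries gave the order Atp6ap2, Agtrap, Lnpep, Ace and Prcp, with no overlap between neighbours over the 2 libraries. With Ang II, Atp6ap2 remained above the others. Agtrap (0 to 5.29 FPKM), Lnpep (1.62 to 2.55 FPKM) and Prcp (0.02 to 2.71 FPKM) overlapped each other, and both Agtrap and Prcp overlapped Ace (0.06 to 0.12 FPKM). Of the 9 members, 3 were measured in the gene test, 2 had values above 0 but too low for it, and 4 were listed at 0 throughout. Of the 3 measured members, 0 were above and 2 below both IL-33 values in both Ang II libraries, against 24.4% and 33.5% of all tested genes. Their median log2 fold change was -0.66, and that of all tested genes was -0.00. Over the same 3 genes the median was -0.41 without the first Ang II library and -0.14 without the second. By limma at an adjusted p of 0.05, 0 of the 3 passed, as did 0 of all 9215 genes (0%). At an unadjusted p under 0.05 these counts were 0 of 3 and 1253 of 9215 (13.6%). With the 2 IL-33 libraries taken as replicates, limma called 1547 genes (16.8%), and 0 of the 3 members. In that fit Atp6ap2 had an adjusted p of 0.248, Agtrap of 0.494 and Lnpep of 0.814.

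Of 18 other genes that form or cleave angiotensins, 9 were listed at 0 in all 4 libraries, among them Agt (angiotensinogen), Ren1 (renin), Enpep, Mme and the mast cell protease genes Cma1 and Mcpt4. These 6 were picked out after their values were seen. Another 4 were below 1 FPKM in every library. Of the 4 measured genes, 3 were lower and 0 higher in both Ang II libraries, against 33.5% lower and 24.4% higher among all tested genes. Their median log2 fold change was -1.54, and 0 passed by limma, adjusted or not. Ctsd, which encodes the lysosomal protease cathepsin D, stood at 47.2 and 62.7 FPKM with Ang II and at 162.1 and 167.6 FPKM with IL-33 (log2 fold change -1.58, adjusted p = 0.386 by limma). Rnpep, which encodes aminopeptidase B, stood at 6.65 and 0.07 FPKM with Ang II and at 10.7 and 11.3 FPKM with IL-33. Dpp3, whose product degrades Ang II, stood at 0.36 and 8.98 FPKM against 9.31 and 9.57 FPKM. Prep, which encodes prolyl endopeptidase, stood at 0.03 and 4.26 FPKM against 0.01 and 0.04 FPKM, the pattern of Prcp. Of 9 genes of the kinin pathway and of mineralocorticoid action, 8 were listed at 0 throughout, and the mineralocorticoid receptor gene Nr3c2 stood at 0 and 0.53 FPKM with Ang II and at 0 in both IL-33 libraries.

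Genes that carry signals from the type 1 receptor were more often measured. Of 33 such genes found in the tables, 21 were measured. Among these 21, 11 were higher in both Ang II libraries, 6 were lower in both and 4 overlapped, with a median log2 fold change of 0.57, against 24.4% higher and 33.5% lower among all tested genes. Arap1, Prkcb and Prkcd among the higher genes, and Plcb3 and Grk2 among the overlapping ones, were below 1 FPKM with IL-33. They entered the gene test through the Ang II libraries, which favours a positive fold change and raises the median. None of the 21 passed by limma (0 at the adjusted threshold, 3 at an unadjusted p under 0.05, against 13.6% of all tested genes). Those 3 were Gna11, Arhgef11 and Rock2, all lower in both Ang II libraries (log2 fold changes -2.42, -2.29 and -2.12). They were near 0 with Ang II and entered the gene test through IL-33, which favours a negative fold change. Of the 11 higher genes, Arap1 (0.09 and 4.48 FPKM against 0.05 and 0.02 FPKM) was near 0 in an Ang II library. So was Prkcb, at 4.86 and 0.06 FPKM against 0.05 and 0.03 FPKM. Gabarap, whose product binds the type 1 receptor and aids its transport to the cell surface, stood at 189 and 162 FPKM with Ang II and at 90.5 and 91.8 FPKM with IL-33 (log2 fold change 0.94, adjusted p = 0.444). Gabarapl1, also on this list, was lower, at 0.17 and 31.25 FPKM with Ang II and at 49.01 and 51.32 FPKM with IL-33. Gna13, the gene of a G protein alpha subunit, stood at 87.2 and 72.5 FPKM against 41.4 and 41.9 FPKM. The Gi subunit genes lay on different sides, with Gnai2 at 75.6 and 34.9 FPKM against 80.7 and 97.5 FPKM and Gnai3 at 55.3 and 85.2 FPKM against 47.3 and 52.2 FPKM. In all of these the Ang II libraries lay on one side of both IL-33 libraries.

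Genes of the Gq-type subunits that the type 1 receptor uses, and of receptor regulators, were picked out after their values were seen. Gnaq stood at 0.06 and 0.01 FPKM with Ang II and at 0.05 and 0.07 FPKM with IL-33. Gna11 stood at 0 and 0.04 FPKM with Ang II and at 5.69 and 3.22 FPKM with IL-33 (adjusted p = 0.174 by limma). Grk6, the gene of a receptor kinase, stood at 11.4 and 0.02 FPKM against 7.60 and 7.23 FPKM, the arrestin gene Arrb2 at 1.59 and 4.60 FPKM against 1.44 and 1.49 FPKM, and Arrb1 at 0.07 and 0.07 FPKM against 1.25 and 0.04 FPKM. Of the other kinase genes listed, Grk2 stood at 0.19 and 3.12 FPKM against 0.09 and 0.29 FPKM, and Grk5 at 0.83 and 0 FPKM against 0.04 and 0.02 FPKM.

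The families to which single members belong were measured beside them. Of 22 vacuolar ATPase subunits, the partners of Atp6ap2, 15 were measured. Of these, 5 were higher, 5 lower and 5 overlapping, with a median log2 fold change of -0.02, against 33.5% lower and 24.4% higher among all tested genes. Atp6v1g1 stood at 344 and 366 FPKM with Ang II and at 323 and 325.04 FPKM with IL-33, Atp6v1f at 428 and 293 FPKM against 278 and 285 FPKM, Atp6v0c at 185 and 245 FPKM against 274 and 269 FPKM, and Atp6v0e at 133 and 113 FPKM against 119.7 and 118 FPKM. Atp6ap1, the other accessory subunit, stood at 121 and 102 FPKM against 101 and 105 FPKM, so that the Ang II values overlapped IL-33 there and not for Atp6ap2. The difference between the pair was not tested.

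Of 10 M1 aminopeptidases, the family of Lnpep, 5 were measured, of which 3 were lower and 0 higher in both Ang II libraries, against 33.5% lower and 24.4% higher among all tested genes. Their median log2 fold change was -1.65. Erap1, which trims peptides for MHC class I, stood at 23.7 and 8.30 FPKM with Ang II and at 45.2 and 47.8 FPKM with IL-33. Aopep stood at 0.02 and 0.01 FPKM against 7.01 and 7.50 FPKM (adjusted p = 0.174 by limma), and Lta4h, whose product makes a leukotriene, at 44.4 and 37.5 FPKM against 36.6 and 38.9 FPKM. Of 10 prolyl peptidases, the functional relatives of Prcp, 5 were measured, 2 higher and 1 lower, beside the same shares over all genes, and their median was 1.18 on the log2 scale. That median is the value of Prep. Prep, Dpp8 and Prepl were near 0 with IL-33, and each entered the gene test through a single Ang II library, which favours a positive fold change. Their direction is therefore no result about the family. Pepd stood at 37.0 and 59.7 FPKM with Ang II and at 90.5 and 88.5 FPKM with IL-33. Xpnpep1 stood at 13.5 and 2.95 FPKM against 7.65 and 8.37 FPKM. Dpp8 stood at 8.77 and 0.19 FPKM against 0.02 and 0.01 FPKM, and Prepl at 0.05 and 4.92 FPKM against 0.01 and 0 FPKM. The higher prolyl peptidases were each above 1 FPKM in a different Ang II library. None of these families had a member past the adjusted threshold by limma, and at an unadjusted p under 0.05 the counts were 0, 1 and 0, against 13.6% of all tested genes.

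**Figure D4:**
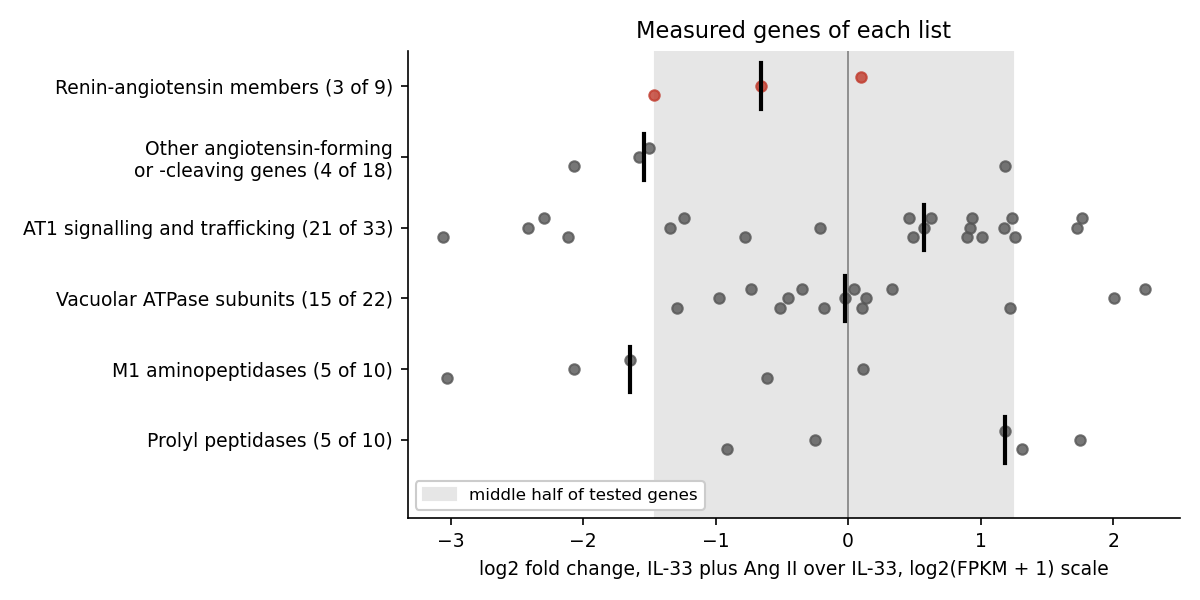
Points are log2 fold changes, IL-33 plus Ang II over IL-33, of the measured genes of each list, with the number measured of those in the tables in brackets, black bars for medians and grey for the interquartile range of 9215 tested genes. The 3 measured members lie between -1.46 and 0.10, and the 21 signalling genes have a median of 0.57. Some genes of the lists were near 0 in a single group and entered the test through the other group.

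Markers of other cell types were summed in each library, and no marker passed the adjusted threshold (limma; 0 in each list). At an unadjusted p under 0.05 the counts were 3 of 8 measured T cell markers, 1 of 7 for macrophages, 1 of 6 for epithelium, 1 of 2 for endothelium and 0 for stromal, mast, B and red blood cells, against 13.6% of all tested genes. Macrophages also make Atp6ap2, Ctsd and Prcp. The summed level of 12 macrophage markers was 2034 and 962 FPKM with Ang II and 2141 and 2106 FPKM with IL-33, and of the 7 measured genes 4 were lower and 2 higher in both Ang II libraries, against 33.5% lower and 24.4% higher among all tested genes. Lyz2 stood at 1016 and 683 FPKM with Ang II and at 1700 and 1668 FPKM with IL-33, and Cd68 at 130.2 and 51.6 FPKM against 150.4 and 150.2 FPKM. Marco stood at 191 and 23.2 FPKM with Ang II and was listed at 0 with IL-33, and Chil3 stood at 696 and 158 FPKM against 212 and 209.7 FPKM. Adgre1, the macrophage marker with an unadjusted p under 0.05 by limma, stood at 0.06 and 0.04 FPKM against 24.19 and 23.55 FPKM. Ear2 stood at 0.16 and 33.9 FPKM against 54.46 and 54.42 FPKM, and Fcgr1 at 0.03 and 11.95 FPKM against 0.02 and 0 FPKM. The defining gene Csf1r was at 0.13 FPKM or lower in every library, and Itgax was listed at 0 in every library. The part of these cells in the values of Atp6ap2 was not tested.

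Fibroblasts, smooth muscle and pericytes, in which Agtr1a is well known, left little RNA: the 11 markers summed to 1.74 FPKM in each Ang II library and to 2.12 and 1.72 FPKM with IL-33, with Pdgfrb and Cspg4 at 0 in every library. The 8 mast cell markers summed to 6.36 and 0.06 FPKM with Ang II and to 6.17 and 5.75 FPKM with IL-33, nearly all of it Kit, and Cma1 and Mcpt4 were listed at 0 throughout. Among all tested genes 33.5% were lower and 24.4% higher in both Ang II libraries, the share beside which the following counts stand. All 8 measured T cell markers were lower in both Ang II libraries (926 and 455 FPKM summed over 10 markers, against 1263 and 1260.5 FPKM). Most of each sum was the receptor constant genes Trbc2 and Trbc1. Trbc2 stood at 541 and 211 FPKM with Ang II and at 710 and 717 FPKM with IL-33. Trbc1 stood at 267 and 220 FPKM against 314 and 306 FPKM. Which cells this RNA came from was not tested. The 11 epithelial markers summed to 80.1 and 206 FPKM against 388 and 378 FPKM, with 5 of 6 measured genes lower. The 7 red blood cell markers summed to 3832 and 1592 FPKM against 25147 and 24944 FPKM, with 5 of 5 lower. The 7 B cell markers summed to 93.5 and 3.33 FPKM against 21.1 and 18.7 FPKM. Of 16 genes that cells in general use, 4 were higher and 7 lower in both, with a median log2 fold change of -0.12. Whether any of these move the members' values was not tested.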

How the data were processed

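RNA was measured in 4 libraries of 500 lung ILC2s each, 2 with IL-33 plus Ang II and 2 with IL-33. Per the labels' protocols, SMARTer cDNA was PCR-amplified, cut with an enzyme and sequenced from both ends; no molecular identifiers or strand setting are named. Values are FPKM per gene with 2 decimals, deposited by the authors per the file headers. The submitters' processing notes name mm10, HISAT, StringTie and edgeR without roles; versions and annotation are not stated. Since FPKM are no counts, the depth is unknown apart from the rough depth inferred from the IL-33 pair, and no count model was used.

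Columns were matched to samples by name. Gene positions come from GENCODE M21 (GRCm38, the assembly of mm10; 55141 of 55401 models found), promoter windows from RefSeq (GRCm38.p6). The IL-33 pair was averaged and counted as 1 sample. The 9215 genes averaging 1 FPKM or more over these 3 columns were tested on log2(FPKM + 1) with limma 3.58.1 in R 4.3.3 (mean-variance trend, two-sided, Benjamini-Hochberg, threshold 0.05), with 1 residual degree of freedom, the lone IL-33 sample being assumed to vary as the Ang II libraries do. Fold changes are on that scale, which understates those of low genes. A gene near 0 in a single group enters the test through the other group, which favours a fold change towards that other group. Higher (or lower) in both means that each Ang II value lies above (or below) each IL-33 value. The members, lists and named genes were chosen with earlier results of these data known. Named are the 9 members, the 4 most abundant genes of each list by mean FPKM (marker lists in part), and the 3 genes nearest to each measured member by Euclidean distance. Other genes are named in places, picked out with their values known. Lists were not tested as sets.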

Additional observations from a re-analysis of the deposited data

How the results depend on the processing

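Under 10 alternatives with a test, 0 members passed the adjusted threshold in each. The count of all genes that passed was 0, and it was 1547 with the 2 IL-33 libraries taken as replicates; it was 0 in the other 9. Leaving out an IL-33 library gave 0 genes either way. With the replicate block, in which the 2 IL-33 libraries are replicates too, 0 genes passed and Atp6ap2 had an adjusted p of 0.485. Deviations of the same-numbered libraries from their group means correlated at -0.02 across genes. Since the middle gene of the IL-33 pair differed by about counting noise, this value cannot show whether the libraries are paired. The log2 fold change of Atp6ap2 stayed between -0.90 and -0.41, and its adjusted p between 0.248 and 0.825. That of Agtrap lay between -3.03 (pseudocount of 0.1) and -0.14. That of Lnpep lay between -0.12, without the second Ang II library, where its sign turned, and 0.31. The median over the measured members was 0.026 with no filter on low values, which adds Ace and Prcp, and -0.71 to -0.049 when 1 library was left out. The value of -0.049 is without the first Ang II library, where Prcp also enters the measured members; over the same 3 members it was -0.41. Without an Ang II library no residual degree of freedom remains, so these are values with no test. Pearson r of the Ang II pair was 0.42 with a pseudocount of 0.1, 0.72 with no filter and 0.50 for genes averaging 5 FPKM or more. The depth behind each value was not given and was only roughly inferred from the IL-33 pair, and that limits every statement on genes listed at 0.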
